A study of Gossypium herbaceum with 12 samples.

Results

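Heat shock proteins and DnaJ co-chaperones were followed in cotton leaves (Gossypium herbaceum) on 27 probe sets, of 24029 on the array besides controls. They are the probe sets whose annotation names heat shock, HSP, DnaJ or a chaperone in the study's 4 lists of probe sets that differed between its accessions, which hold 1712 probe sets in all. The lists rest on the study's own expression values from these arrays, so a difference between accessions in the condition that listed a member is a description here and carries no test. By that text 4 members are small heat shock proteins, 3 are HSP90 proteins, 2 are HSP70 proteins, 1 is HSP60 and 5 are DnaJ proteins. A further 8 are called heat shock protein with no class, 2 are co-factors of chaperones, and 2 are copper chaperones, which carry metal ions and do not fold proteins. The names were given by the study's annotation of cotton expressed sequences, and 11 members are probe sets with the suffix _s_at and 2 with _x_at, which can also bind transcripts of related genes.

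Leaf RNA came from 12 plants of 2 accessions, 1 plant on each Affymetrix cotton array, with 3 plants in each of 4 groups. The groups were Vagad (drought tolerant) under drought, Vagad irrigated, RAHS-14 (drought sensitive) under drought, and RAHS-14 irrigated. Drought plants received water only in alternate weeks and irrigated plants every day. All plants were 1 month old and grew in earthen pots in a greenhouse at 28 °C with 16 h of light. Each accession is 1 line, and 3 plants measure the spread between plants of that line only.

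Heat shock proteins keep other proteins folded when cells are stressed. Small heat shock proteins hold partly unfolded proteins without using ATP, and the ATP-driven HSP70 chaperones, which DnaJ (J-domain) proteins supply with clients and stimulate, refold them. HSP90 acts on late folding steps of signalling proteins, and HSP60 is the barrel-shaped chaperonin of mitochondria and plastids. In plants these genes are switched on by heat shock transcription factors, HSFA2 among them, in heat and in several other stresses, and some members of each class are made in unstressed cells as well.

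The arrays of Vagad drought plants 1 and 2 were unlike the other 10, so their values are given separately throughout. As deposited, these 2 arrays had median signals of 323 and 346, where the remaining arrays had 61.3 to 74.7. The median of their Spearman rank correlations with each of the other 10 arrays was 0.594 and 0.438, where those arrays reached 0.944 to 0.957 among themselves. The median tag control probe set, which has no plant target, read 89.0 and 96.7 on these arrays and 1.36 to 7.43 on the others, and the log2 ratio of 3′ to 5′ control signals was 0.654 and 0.463, against 2.57 to 3.54. The summed level of the 6 leaf marker probe sets (chlorophyll, photosystem and Rubisco genes found in the lists) was 2521 and 3442 deposited signal units on these arrays and 454 to 724 on the others, while that of the 4 seed storage and fiber probe sets was 5734 and 7960, against 10478 to 16564. After normalization the median leaf marker was at 7.30 and 6.81 log2 units, against 6.22 to 6.89. The median seed storage or fiber probe set was then at 10.14 and 10.45, against 8.14 to 9.55. That set was thus lower on these 2 arrays by its deposited sum and higher by its normalized median. Single leaf markers went both ways on plant 2: 1 read 10.95, above the other 10 arrays, and another read 5.05, below them. None of the 6 leaf markers (0 of 6) lay above the array median on all 12 arrays, whereas 2 of the 4 others did. The deposited sums are not scaled for the higher median signals of these 2 arrays. Most markers of both sets were listed as higher in Vagad under drought, a group that includes these 2 arrays. Their levels here were therefore partly set by that choice and are no support for a difference in tissue. These markers were only those that the lists hold, so the labelled tissue could not be checked against a full set. The part of these differences in the Vagad values below was not tested.

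Levels are log2 signals after quantile normalization, in which the floor for dim signals is 4.10. Of the 27 members, 23 were brighter than the array median on at least 3 arrays and were tested, and 4 were not. In a bulk leaf sample, a lower level from fewer cells of a type cannot be told apart from less RNA per cell.

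Under drought, RAHS-14 leaves held more of the transcripts of 9 members and less of 1, a DnaJ protein. The 9 were 3 of the 4 small heat shock proteins and 6 of the 7 tested members named heat shock protein without a class. None of the HSP90, HSP70 or HSP60 members passed the test, which required an adjusted p below 0.05 in limma and at least a 2-fold difference. Over all 12856 probe sets tested, 2.51% were called higher and 3.38% lower in the same comparison, against 39.1% of the tested members called higher. The median log2 difference of the 23 members was 0.26, against 0.01 for all probe sets. The drought comparison did not choose the members, but it uses arrays on which they were chosen. GhiAffx.41577.1.S1_s_at was above the array median on fewer than 3 irrigated arrays, so it entered the test through its drought values. Its call is therefore no support for a rise, though it is counted among the 9 and in the 39.1%. All 10 calls were kept when any 1 of the 6 plants was left out. With the 10 arrays that leave out Vagad drought plants 1 and 2 the counts were again 9 and 1 (3.46% and 4.62% of all probe sets), and with the 9 arrays outside the Vagad drought group 9 and 1 (3.49% and 4.61%). With all 4 groups in one fit, whose spread includes the Vagad drought plants, only Ghi.10640.1.S1_s_at and Ghi.5136.1.S1_s_at stayed raised and the DnaJ protein lowered (2 and 1 members, 0.42% and 0.467% of all probe sets).

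**Figure D1:**
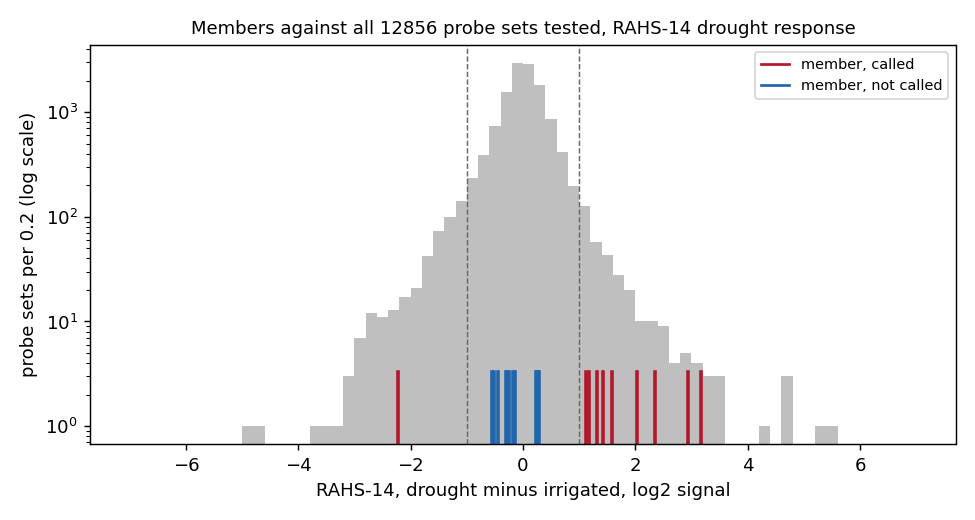
Histogram of log2 differences, drought minus irrigated RAHS-14 leaves, over all 12856 probe sets tested (vertical axis, number of probe sets per bin on a log scale), with short lines for the 23 members tested, red where called and blue where not, and dashed lines at a 2-fold difference. The 9 raised members lie between 1.12 and 3.16, 1 lies at -2.23, and the 13 others lie between -0.55 and 0.29.

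Of the 4 small heat shock proteins, 3 rose in RAHS-14 under drought. The class III small heat shock protein GhiAffx.33882.1.S1_s_at had log2 signals of 9.49, 9.54 and 9.45 in the RAHS-14 drought plants, against 7.26, 7.03 and 7.16 in the irrigated plants. The groups were far apart and each was narrow, and the difference of 2.35 (SE 0.08, 5.08-fold) had a limma adjusted p of 5.57e-06. The mitochondrial small heat shock protein GhiAffx.20947.1.S1_at, from a family that protects proteins inside mitochondria, read 9.50, 9.42 and 9.71 in drought plants and 7.35, 7.67 and 7.54 in irrigated plants. Every drought plant again lay above every irrigated plant, by 2.02 on average (SE 0.11, 4.07-fold, adjusted p 3.07e-05).

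GhiAffx.22436.1.S1_at, a small heat shock protein whose compartment the text does not give, read 8.32, 8.30 and 8.20 in RAHS-14 drought plants and 6.88, 6.91 and 7.07 in irrigated plants. Its rise was smaller, 1.32 (SE 0.08, 2.49-fold, adjusted p 3.9e-05), with no overlap between the groups. The remaining small heat shock protein went the other way without passing the test. GhiAffx.16191.1.S1_at read 13.36, 13.29 and 13.28 in drought plants and 13.47, 13.44 and 13.54 in irrigated plants, a difference of -0.17 (SE 0.06, adjusted p 0.0612). Over all 12 plants of both accessions its level stayed between 12.57 and 13.54.

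**Figure D2:**
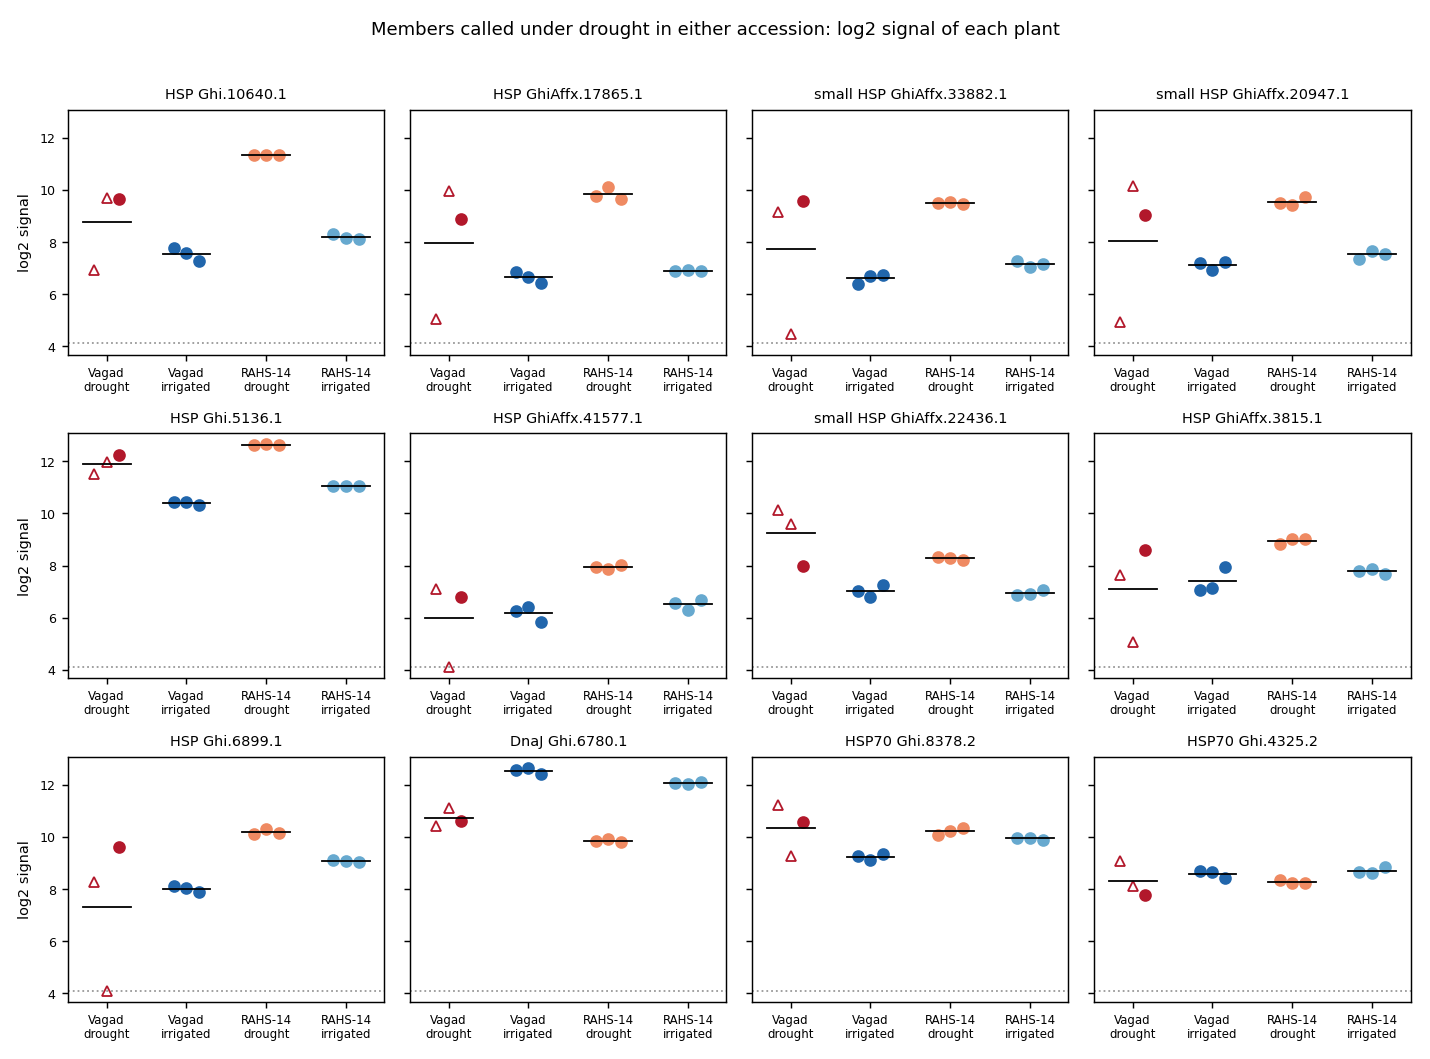
Log2 signal (vertical axis) of each plant in the Vagad drought, Vagad irrigated, RAHS-14 drought and RAHS-14 irrigated groups for the 12 members called in a drought comparison of either accession. Points are plants, open triangles are Vagad drought plants 1 and 2, bars are means over 3 plants and the dotted line is the floor of 4.10. The RAHS-14 drought plants lie close together and above the irrigated ones in the 9 raised members, while the Vagad drought plants are spread widely in most panels.

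The largest increases were in members that the text calls only heat shock protein. Ghi.10640.1.S1_s_at read 11.35 in each of the 3 RAHS-14 drought plants, against 8.30, 8.16 and 8.10 in the irrigated plants. Drought plants were alike to 2 decimals and 8.94-fold above irrigated plants, a log2 difference of 3.16 (SE 0.07, adjusted p 1.89e-06). GhiAffx.17865.1.S1_at read 9.78, 10.11 and 9.65 in drought plants and 6.87, 6.93 and 6.90 in irrigated plants. It rose by 2.95 (SE 0.12, 7.70-fold, adjusted p 1.03e-05), and by 3.64 (12.5-fold) when the 10 arrays without Vagad drought plants 1 and 2 were normalized by themselves.

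Ghi.5136.1.S1_s_at read 12.61, 12.65 and 12.64 in RAHS-14 drought plants and 11.04, 11.06 and 11.06 in irrigated plants. Both groups were tight and did not overlap, with a rise of 1.58 (SE 0.06, 2.99-fold, adjusted p 6.71e-06). GhiAffx.41577.1.S1_s_at read 7.93, 7.87 and 8.04 in drought plants and 6.57, 6.28 and 6.69 in irrigated plants, 2.70-fold apart with no overlap (log2 difference 1.43, SE 0.11). As it entered the test through its drought values, its call (limma adjusted p 0.000143) is no support for a rise. GhiAffx.3815.1.A1_s_at followed with 8.84, 9.02 and 9.0 in drought plants against 7.79, 7.86 and 7.68 in irrigated plants (1.18, SE 0.08, adjusted p 7.82e-05).

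Ghi.6899.1.A1_at, which 1 list annotates as an ATP-binding protein that binds unfolded proteins, read 10.12, 10.29 and 10.15 in RAHS-14 drought plants and 9.12, 9.06 and 9.03 in irrigated plants. It had the smallest of the called rises, 1.12 (SE 0.07, 2.17-fold, adjusted p 5.54e-05), and its groups did not overlap. The tested member of this set that was not called was Ghi.6769.1.S1_at, with 7.19, 7.70 and 7.65 in drought plants and 7.25, 7.18 and 7.43 in irrigated plants, groups that overlapped. The eighth, GhiAffx.62282.1.S1_at, was at the floor in all 3 RAHS-14 drought plants and read 6.17, 4.61 and 5.56 in the irrigated ones, too dim to be tested.

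The members named HSP70, HSP90 or HSP60 differed by less than 2-fold in RAHS-14. The HSP70 member Ghi.8378.2.S1_s_at, a heat shock cognate, a type made also without stress, read 10.09, 10.23 and 10.33 in drought plants and 9.95, 9.97 and 9.89 in irrigated plants. The groups did not overlap, but the difference of 0.28 (SE 0.08, adjusted p 0.0284) was well under 2-fold. The other HSP70 member, Ghi.4325.2.S1_x_at, read 8.36, 8.22 and 8.23 in drought plants and 8.66, 8.61 and 8.85 in irrigated plants, a difference of -0.44 (SE 0.09, adjusted p 0.00704), so the 2 HSP70 probe sets differed in opposite directions.

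All 3 HSP90 members carry the name HSP81-2, a cytosolic HSP90 of Arabidopsis. Ghi.9834.1.S1_s_at read 11.06, 11.05 and 11.13 in RAHS-14 drought plants and 11.30, 11.42 and 11.28 in irrigated plants. Ghi.1091.1.S1_x_at read 13.61, 13.42 and 13.37 in drought plants and 13.83, 13.64 and 13.79 in irrigated plants. Ghi.2738.1.S1_s_at lay the other way, with 10.19, 10.29 and 10.47 in drought plants and 10.04, 9.98 and 10.05 in irrigated plants.

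The HSP90 differences were -0.25, -0.29 and 0.29, each with an adjusted p between 0.0244 and 0.0402 and each below the 2-fold threshold. The probe sets may bind overlapping sets of transcripts, and the 3 values need not come from 3 genes. The HSP60 member Ghi.2235.1.A1_s_at read 9.40, 9.49 and 9.55 in drought plants and 9.66, 9.62 and 9.55 in irrigated plants. Its highest drought plant and lowest irrigated plant were level to 2 decimals, and the difference was -0.14 (SE 0.07, adjusted p 0.16).

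Among the DnaJ proteins, 1 of 5 fell in RAHS-14 and none rose (0 of 5). Ghi.6780.1.S1_s_at read 9.83, 9.90 and 9.80 in drought plants and 12.07, 12.04 and 12.11 in irrigated plants. It fell by 2.23 on the log2 scale (SE 0.06, adjusted p 2.93e-06), with drought plants at 0.213 of the irrigated level and every drought plant below every irrigated one. It was the only member called lower.

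The other 4 DnaJ members did not pass the test. GhiAffx.25308.1.S1_at read 9.08, 9.09 and 9.10 in RAHS-14 drought plants and 8.80, 8.85 and 8.85 in irrigated plants (0.26, adjusted p 0.0112), the only DnaJ probe set above its irrigated level. Ghi.3113.1.S1_at read 8.43, 8.18 and 8.39 in drought plants and 9.20, 8.79 and 8.54 in irrigated plants (-0.51, adjusted p 0.0511), lower in each drought plant than in any irrigated one. GhiAffx.60787.1.S1_at and GhiAffx.6699.1.S1_at differed by -0.30 and -0.29.

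The copper chaperone-related GhiAffx.43092.1.S1_at read 7.11, 6.51 and 6.53 in RAHS-14 drought plants and 7.05, 7.42 and 7.34 in irrigated plants, with overlapping groups (-0.55, adjusted p 0.05003). The other copper chaperone, Ghi.4405.1.S1_at, was not tested and read 5.45, 5.46 and 4.83 in drought plants and 6.29, 6.06 and 6.22 in irrigated plants. The co-factors were not tested either. The nucleotide exchange factor Ghi.9238.3.A1_at, of a group that lets HSP70 release its client, read 6.55, 6.46 and 6.21 in drought plants and 6.65, 6.58 and 6.65 in irrigated plants, and GhiAffx.59137.1.S1_s_at, annotated both for binding heat shock proteins and as a plastid transcription component, read between 4.10 and 5.68 in all 6 RAHS-14 plants.

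In all, 12 of the 23 tested members were higher in every RAHS-14 drought plant than in any irrigated plant and 8 were lower in every one. Over all probe sets tested, 27.1% were separated upward and 26.3% downward in this way. With 9 of the 12 also past 2-fold, the upward separation of the members was mostly wide, while 7 of the 8 downward separations were under 2-fold.

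**Figure D3:**
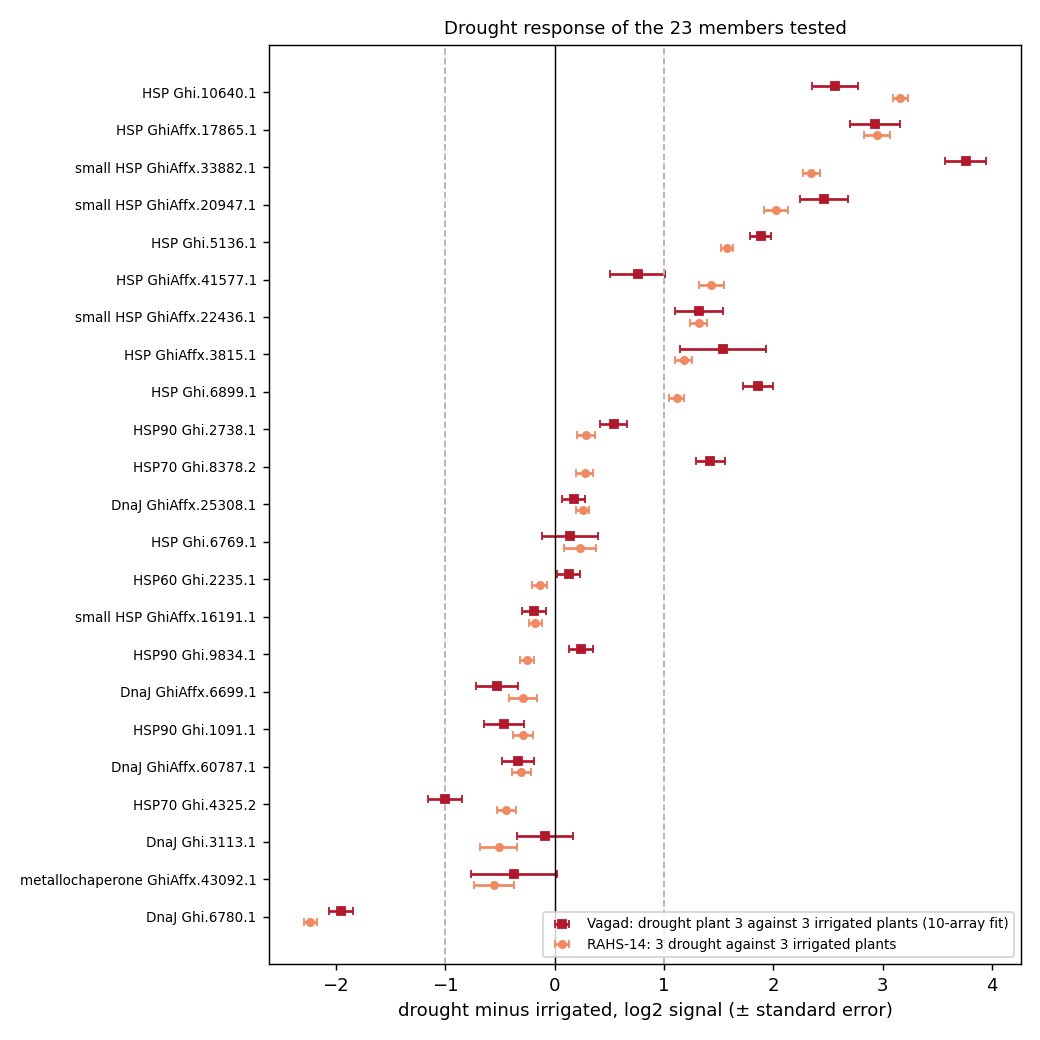
Log2 difference, drought minus irrigated (horizontal axis), with its standard error for the 23 members tested, as squares for Vagad (drought plant 3 against 3 irrigated plants, from the fit on 10 arrays) and circles for RAHS-14 (3 against 3 plants). Dashed lines mark a 2-fold difference. The 9 members raised in RAHS-14 form the top of the plot, 8 of them past 2-fold in Vagad too, and the DnaJ protein Ghi.6780.1.S1_s_at lies at -1.95 in Vagad and -2.23 in RAHS-14.

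In Vagad, the comparison of all 3 drought plants with the 3 irrigated plants called no member in either direction (0 of 23) and no probe set at all (0%). At an unadjusted limma p below 0.05 and a 2-fold difference, 2 members were higher and 1 lower, where 2.85% of all probe sets were higher and 7.69% lower. The methods' t-test at its unadjusted threshold gave the same counts of members, 2 and 1, where 2.15% and 3.2% of all probe sets passed. All 4 groups in one fit also called 2 higher and 1 lower, where 1.42% and 2.42% of all probe sets were called. The Vagad drought plants differed widely among themselves. Over the tested members, the 3 Vagad drought plants spanned 0.30 to 5.50 log2 units with a median of 2.73, while the widest of the other 3 groups spanned 0.13 to 0.90.

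Plant 3, the Vagad drought plant that resembled the other arrays, can be set against the irrigated plants in a fit on the 10 arrays without plants 1 and 2, which takes the spread of the other groups for this lone plant. In that fit 9 members were higher and 2 lower, where 4.48% of 12599 probe sets were called higher and 5.79% lower. Of the 9 members raised in RAHS-14, 8 were among these 9. The comparison rests on 1 plant, and in single plants differences are common: plant 3 lay above all irrigated Vagad plants in 38.1% of all probe sets and below them in 37.5%, and among the 23 members it lay above in 15 and below in 8.

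The class III small heat shock protein GhiAffx.33882.1.S1_s_at read 9.14, 4.46 and 9.59 in Vagad drought plants 1, 2 and 3, against 6.39, 6.69 and 6.74 in irrigated Vagad plants. Plants 1 and 3 were well above the irrigated level and plant 2 was near the floor. On all plants the difference was 1.13 (SE 1.36, adjusted p 0.643), and with plant 3 alone it was 3.76 (SE 0.19, adjusted p 7.95e-06), the largest of any member in that fit.

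The mitochondrial small heat shock protein GhiAffx.20947.1.S1_at read 4.93, 10.13 and 9.04 in Vagad drought plants and 7.18, 6.91 and 7.22 in irrigated plants. Here plant 1 was the low one, and plants 2 and 3 were above every irrigated plant. The difference was 0.93 (SE 1.32) on all plants and 2.46 (SE 0.22, adjusted p 0.000105) with plant 3 alone.

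GhiAffx.22436.1.S1_at was 1 of only 2 members above the irrigated level in all 3 Vagad drought plants, where 8.58% of all probe sets were so. It read 10.15, 9.60 and 7.99 in drought plants and 7.01, 6.77 and 7.24 in irrigated plants, with plants 1 and 2 higher than plant 3. Its difference was 2.24 (SE 0.66, adjusted p 0.404) on all plants and 1.32 (SE 0.22, adjusted p 0.0029) with plant 3 alone. The other such member, Ghi.5136.1.S1_s_at, read 11.50, 11.96 and 12.25 in drought plants and 10.45, 10.44 and 10.32 in irrigated plants, 1.5 apart (SE 0.43, adjusted p 0.404) on all plants and 1.88 apart (SE 0.09, adjusted p 7.95e-06) with plant 3 alone.

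The fourth small heat shock protein, GhiAffx.16191.1.S1_at, read 12.71, 12.57 and 12.87 in Vagad drought plants and 13.07, 13.22 and 12.95 in irrigated plants. All 3 drought plants were slightly below the irrigated ones (-0.36, SE 0.40, adjusted p 0.612). The same order, drought a little below irrigated, was seen in RAHS-14.

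**Figure D4:**
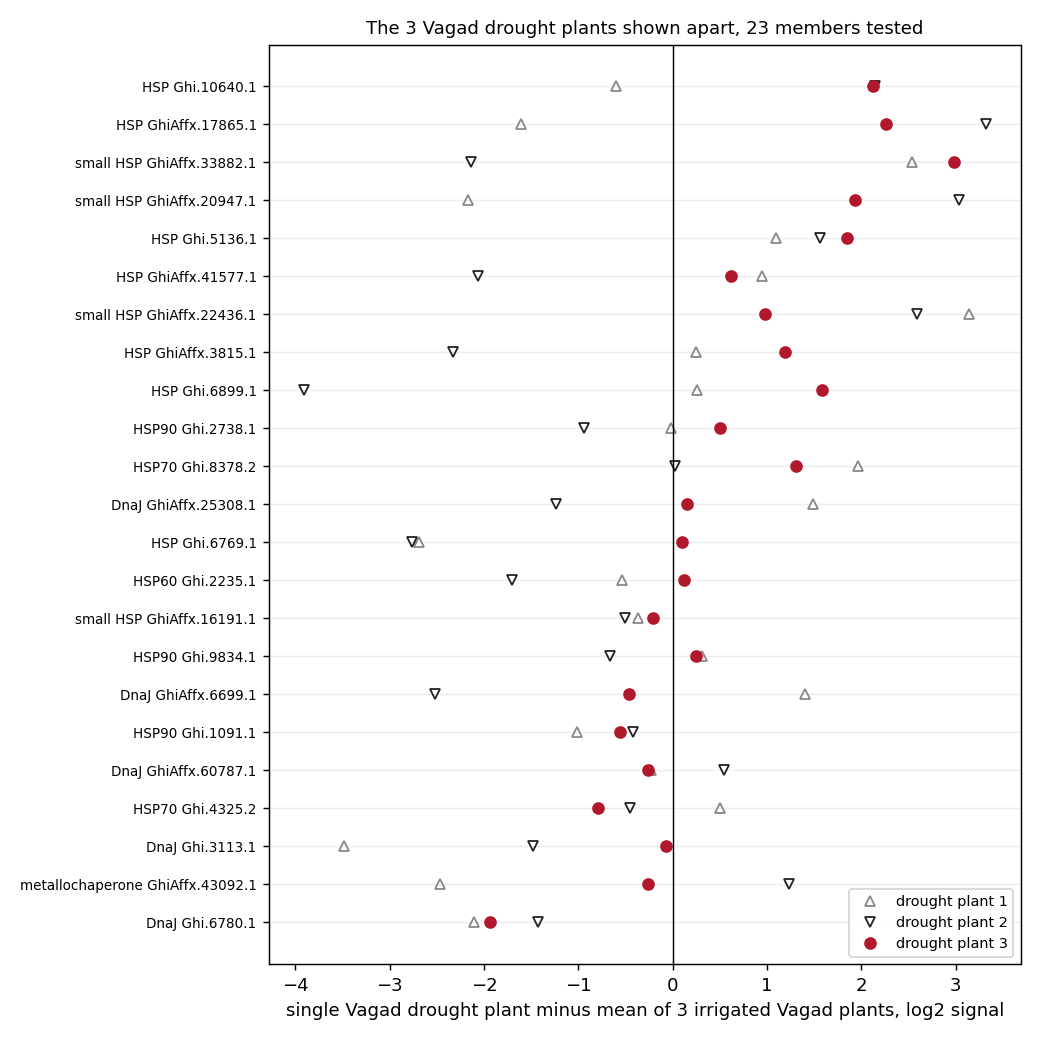
Each Vagad drought plant minus the mean of the 3 irrigated Vagad plants in log2 signal (horizontal axis) for the 23 members tested, with open upward triangles for plant 1, open downward triangles for plant 2 and filled circles for plant 3. Plants 1 and 2 fall on opposite sides of 0 in many members, and all 3 plants lie on the same side in, among others, Ghi.5136.1.S1_s_at, GhiAffx.22436.1.S1_at and, below 0, in Ghi.6780.1.S1_s_at.

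Members without a class were divided among the Vagad drought plants in the same way. Ghi.10640.1.S1_s_at read 6.94, 9.68 and 9.66 in drought plants and 7.75, 7.59 and 7.28 in irrigated plants, with only plant 1 below (1.22, SE 0.83 on all plants; 2.56, SE 0.21, adjusted p 7.45e-05 with plant 3 alone). GhiAffx.17865.1.S1_at read 5.03, 9.96 and 8.90 in drought plants and 6.84, 6.66 and 6.42 in irrigated plants, again low in plant 1 (2.93, SE 0.23, adjusted p 5.94e-05 with plant 3 alone). For Ghi.6899.1.A1_at plant 2 was the low one, at the floor, with 8.27, 4.10 and 9.60 in drought plants and 8.13, 8.05 and 7.88 in irrigated plants.

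That member differed by -0.69 (SE 1.37) on all plants and by 1.86 (SE 0.14, adjusted p 4.5e-05) with plant 3 alone, so its direction turns on plant 2. GhiAffx.3815.1.A1_s_at read 7.64, 5.06 and 8.58 in drought plants and 7.06, 7.15 and 7.96 in irrigated plants (-0.30, SE 0.95 on all plants; 1.54, SE 0.39, adjusted p 0.0196 with plant 3 alone). GhiAffx.41577.1.S1_s_at, called in RAHS-14, read 7.12, 4.10 and 6.78 in drought plants and 6.25, 6.40 and 5.85 in irrigated plants. It was the 1 member raised in RAHS-14 and not called in Vagad with plant 3 alone, where its difference was 0.76 (SE 0.25, adjusted p 0.0487), under 2-fold.

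The heat shock cognate HSP70 Ghi.8378.2.S1_s_at read 11.21, 9.27 and 10.56 in Vagad drought plants and 9.27, 9.12 and 9.35 in irrigated plants. Plants 1 and 3 were above every irrigated plant and plant 2 was level with them. The difference was 1.10 (SE 0.60, adjusted p 0.41) on all plants and 1.42 (SE 0.13, adjusted p 0.000141) with plant 3 alone, against 0.28 in RAHS-14, and whether the responses of the accessions differ was not tested, since that difference is made of the comparisons that chose the members.

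The other HSP70 member, Ghi.4325.2.S1_x_at, read 9.08, 8.12 and 7.78 in Vagad drought plants and 8.68, 8.64 and 8.42 in irrigated plants. Plants 2 and 3 were below the irrigated plants and plant 1 was above them (-0.25, SE 0.50 on all plants), and plant 3 alone differed by -1.0 (SE 0.16, adjusted p 0.00237). The 2 HSP70 probe sets thus lay on opposite sides in plant 3, while plant 1 was above the irrigated plants in both.

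For HSP90, Ghi.9834.1.S1_s_at read 11.77, 10.79 and 11.70 in Vagad drought plants and 11.40, 11.41 and 11.56 in irrigated plants. Ghi.1091.1.S1_x_at read 12.54, 13.13 and 12.99 in drought plants and 13.66, 13.80 and 13.19 in irrigated plants, lower in every drought plant. Ghi.2738.1.S1_s_at read 9.74, 8.82 and 10.26 in drought plants and 9.78, 9.76 and 9.74 in irrigated plants. With plant 3 alone their differences were 0.25, -0.46 and 0.54, and none reached 2-fold (0 of 3).

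The HSP60 member Ghi.2235.1.A1_s_at read 9.33, 8.16 and 9.99 in Vagad drought plants and 9.83, 9.93 and 9.84 in irrigated plants. Only plants 1 and 2 were below the irrigated level (-0.71, SE 0.58, adjusted p 0.516, and 0.13 with plant 3 alone).

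The DnaJ protein Ghi.6780.1.S1_s_at was low in all 3 Vagad drought plants. It read 10.43, 11.11 and 10.60 in drought plants and 12.56, 12.64 and 12.41 in irrigated plants, with a gap of more than 1 log2 unit between the groups. The difference was -1.82 (SE 0.43, unadjusted p 0.00457, adjusted p 0.404) on all plants and -1.95 (SE 0.11, adjusted p 1.33e-05) with plant 3 alone. It was 1 of 4 members lower in all 3 drought plants than in any irrigated plant, where 20.1% of all probe sets were so.

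The remaining DnaJ members had no common pattern in Vagad. GhiAffx.6699.1.S1_at read 10.62, 6.70 and 8.76 in drought plants and 9.20, 9.26 and 9.19 in irrigated plants, and GhiAffx.25308.1.S1_at read 10.37, 7.64 and 9.03 against 8.78, 8.89 and 8.96. In both, plant 1 was the highest and plant 2 the lowest. Ghi.3113.1.S1_at read 5.48, 7.49 and 8.89 in drought plants and 8.99, 8.93 and 8.98 in irrigated plants, and GhiAffx.60787.1.S1_at 8.03, 8.80 and 7.99 against 8.28, 8.32 and 8.16.

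The dimmer members were also scattered among the Vagad drought plants. The heat shock protein Ghi.6769.1.S1_at read 4.18, 4.10 and 6.97 in drought plants and 6.78, 6.90 and 6.92 in irrigated plants, at or near the floor in plants 1 and 2 only. The copper chaperone-related GhiAffx.43092.1.S1_at read 4.70, 8.39 and 6.89 in drought plants and 6.95, 7.01 and 7.52 in irrigated plants. Among the untested members, GhiAffx.62282.1.S1_at was off the floor in Vagad drought plant 2 (7.10) and barely in plant 3 (4.16), while the copper chaperone Ghi.4405.1.S1_at was at the floor in all 3 drought plants and read 5.04, 4.70 and 5.14 in irrigated Vagad plants. The nucleotide exchange factor Ghi.9238.3.A1_at read 4.10, 7.13 and 6.59 in drought plants against 6.80, 6.96 and 6.75.

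Between the accessions, the members were chosen on their differences, and these are described without a test. Of the 15 members that the lists put higher in irrigated Vagad, 14 were bright enough here, with log2 differences (Vagad minus RAHS-14) of -1.05 to 0.13 in these values, 11 of them below 0. The lowest was Ghi.6899.1.A1_at, with 8.13, 8.05 and 7.88 in irrigated Vagad plants and 9.12, 9.06 and 9.03 in irrigated RAHS-14 plants. Of the 6 put higher in irrigated RAHS-14, 4 were bright enough, with differences of -0.40 to 0.46. The largest of them was again the DnaJ protein Ghi.6780.1.S1_s_at, 0.46 above RAHS-14 in Vagad.

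Under drought, 11 members were listed as higher in Vagad. The 10 bright enough differed by -2.86 to 0.97 on all plants and by -0.76 to 0.63 with Vagad plant 3 alone. Their median on all plants was -0.66, level with the -0.65 of all probe sets tested. With plant 3 alone it was -0.39, against 0.01 for all probe sets. The 4 listed as higher in RAHS-14 include 3 bright enough, at -0.59 to 0.19 on all plants and -0.38 to 0.56 with plant 3 alone. The lists were made from values the study computed differently from the signals deposited, and the part of that difference was not tested.

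Some members can be tested in the condition that did not list them. Of the 6 listed under drought only, 5 were tested under irrigation and none was called (0 of 5), where 2.5% of all probe sets were called in either direction. None passed at an unadjusted p below 0.05 with a 2-fold difference either (0 of 5, with 2.74% of all probe sets passing), and the methods' t-test called none (0 of 5, with 2.52% of all). The widest of the 5 differences were 0.43 for the DnaJ protein GhiAffx.6699.1.S1_at (SE 0.09, adjusted p 0.0243) and -0.42 for the heat shock protein Ghi.6769.1.S1_at (SE 0.09, adjusted p 0.0278). The irrigated levels of the DnaJ protein were 9.20, 9.26 and 9.19 in Vagad against 8.77, 8.94 and 8.65 in RAHS-14. Those of the heat shock protein were 6.78, 6.90 and 6.92 in Vagad against 7.25, 7.18 and 7.43 in RAHS-14.

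Of the 12 members listed under irrigation only, 10 were tested under drought. On all plants none was called by limma (0 of 10, with 0% of all probe sets called), while 1 was lower in Vagad at an unadjusted p below 0.05 and also by the methods' t-test, where 7.48% and 2.86% of all probe sets were. With Vagad drought plant 3 alone, 3 of the 10 were lower in Vagad and none was higher (0 of 10), where 5.11% and 3.4% of all probe sets were. These were the heat shock proteins Ghi.10640.1.S1_s_at (-1.79, SE 0.21, adjusted p 0.000826), GhiAffx.17865.1.S1_at (-1.06, SE 0.23, adjusted p 0.0121) and GhiAffx.41577.1.S1_s_at (-1.58, SE 0.25). The last was above the array median on 4 arrays only, those of the 3 RAHS-14 drought plants and of Vagad drought plant 1, so it entered the test through the group in which it was high and its call is no support for a difference. In Ghi.10640.1.S1_s_at the Vagad drought plants read 9.68 at most, against 11.35 in the RAHS-14 drought plants. GhiAffx.41577.1.S1_s_at read 7.12 in Vagad at most and 7.87 in RAHS-14 at least. The share of all probe sets ordered in this way is not given here, and their median difference on all plants was -0.65. This order is therefore no support for a difference of these members.

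In GhiAffx.17865.1.S1_at, by contrast, Vagad plant 2 at 9.96 lay within the RAHS-14 drought range of 9.65 to 10.11. Between irrigated plants the difference was smaller, -0.65 in Ghi.10640.1.S1_s_at, -0.26 in GhiAffx.17865.1.S1_at and -0.35 in GhiAffx.41577.1.S1_s_at.

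Other folding genes in the lists gave 10 tested probe sets of 11, outside the text rule of the members. In RAHS-14 under drought 2 rose and none fell (0 of 10), where 2.51% of all probe sets were called higher and 3.38% lower. HSFA2 (Ghi.10292.1.S1_s_at), the heat shock factor that in Arabidopsis drives many heat shock protein genes, read 9.35, 9.24 and 9.34 in RAHS-14 drought plants and 7.59, 7.34 and 7.54 in irrigated plants. The rise was 1.82 (SE 0.08, 3.53-fold, adjusted p 1.68e-05) without overlap.

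In Vagad, HSFA2 read 8.08, 10.06 and 8.39 in drought plants and 7.09, 6.88 and 7.09 in irrigated plants, above the irrigated level in all 3. That was a difference of 1.83 (SE 0.63, adjusted p 0.404) on all plants and of 1.81 (SE 0.17, adjusted p 0.000137) with plant 3 alone. The other raised probe set, Ghi.8686.2.A1_s_at, is annotated with the hyphenated word heat-shock and read 11.30, 11.25 and 11.55 in RAHS-14 drought plants and 9.40, 9.56 and 9.49 in irrigated plants (1.88, SE 0.10, adjusted p 2.24e-05). In Vagad it read 8.96, 4.10 and 10.43 in drought plants and 9.21, 9.26 and 9.39 in irrigated plants, with only plant 3 above.

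A prolyl isomerase (Ghi.10212.1.S1_x_at), from the enzymes that turn proline bonds during folding, was just under the 2-fold threshold in RAHS-14 at 0.93 (SE 0.10, adjusted p 0.000511). Calnexin (Ghi.7345.1.S1_at), a chaperone of the endoplasmic reticulum, was just under it in the other direction at -0.96 (SE 0.10, adjusted p 0.000525). On the 10 arrays normalized by themselves these were 1.25 and -1.15, and both passed.

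**Figure D5:**
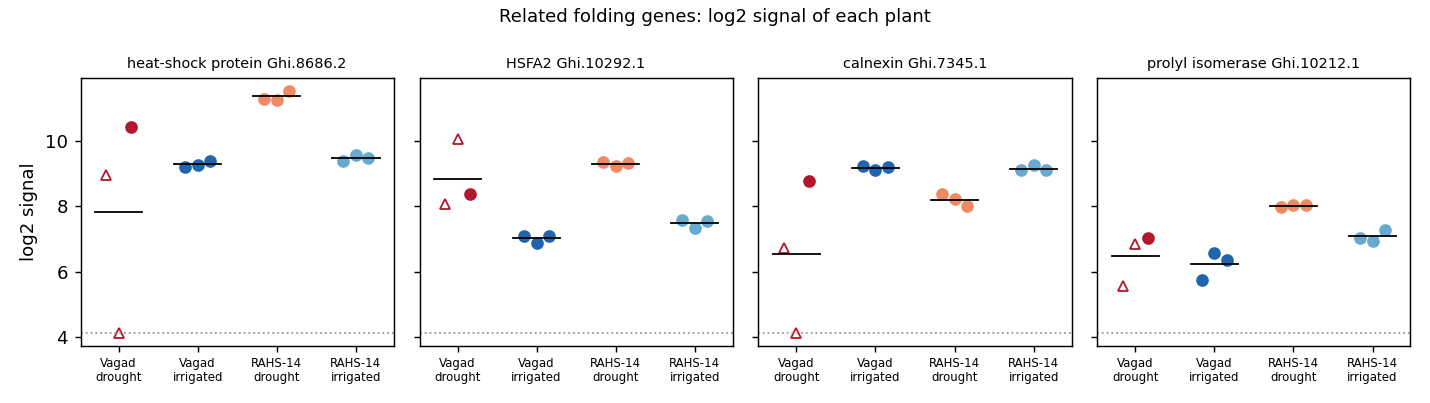
Log2 signal (vertical axis) of each plant in the Vagad drought, Vagad irrigated, RAHS-14 drought and RAHS-14 irrigated groups for 4 related folding genes, with open triangles for Vagad drought plants 1 and 2, bars for means over 3 plants and a dotted line at the floor. HSFA2 and Ghi.8686.2.A1_s_at are 1.82 and 1.88 higher in RAHS-14 drought plants, and calnexin is 0.96 lower.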

How the data were processed

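Leaf RNA of 12 plants was hybridised to Affymetrix cotton arrays. Per the labels and the study's methods the authors summarised each array with MAS5, and the deposited values are linear intensity signals per probe set, 24132 with 103 controls. Sources used here give no genome build, and the deposited signals are not the RMA values from which the study made its lists. Members and lists were chosen with earlier results of these data known.

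Signals were quantile normalized over 12 arrays, set to a floor of 17.2 (the median of the arrays' percentile 20), and log2 transformed. The test took the 12856 probe sets, controls left out, that exceeded the median of their array on 3 or more arrays. Each contrast was fitted with limma 3.58.1 in R 4.3.3 on the 6 arrays of its groups, as the methods compare 2 groups at a time. A call needs a Benjamini-Hochberg adjusted p below 0.05 over all tested probe sets and a 2-fold difference. The procedure was tested on data simulated with the means and spread of the RAHS-14 arrays, which does not cover the Vagad drought comparisons. With 3 plants a group, the number of arrays limits the precision. Replicate numbers name single plants, and no 2 arrays were identical. The rule for per-plant values took members called or largest in a drought comparison, the brightest of each class and related genes called. The per-plant values of the other members, and the prolyl isomerase and calnexin, were added after their values were seen. The fit on 10 arrays leaves out Vagad drought plants 1 and 2. Other alternatives were other scalings, filters and fits, and 1 was added after seeing the data (9 arrays, without the Vagad drought group). Figures were drawn with matplotlib 3.10.9.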

Additional observations from a re-analysis of the deposited data

How the results depend on the processing

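RAHS-14 counts of 9 raised members and 1 lowered held under other scalings, filters, leave-one-out fits, the 10 arrays and the 9 arrays. With all 4 groups in one fit over 12 arrays, which shares the spread of the Vagad drought plants, 2 were raised. Without a fold threshold 12 were raised and 5 lowered, where 20.3% and 19.7% of all probe sets were. In Vagad, 0 raised and 0 lowered became 2 and 1 with all groups in one fit, and 2 and 1 by the methods' t-test. When 1 plant was left out, the Vagad counts ranged from 0 to 2 and 0 to 2. The high end was without Vagad drought plant 3, where 898 of 12856 probe sets were called higher and 2541 lower. Under irrigation, 1 testable member was lower in Vagad with no filter (0 with it), where 0.753% of all probe sets were, and without a fold threshold 1 of 5 was higher and 1 lower, where 7.73% and 7.2% of all were. Under drought, 3 were lower in Vagad on 10 arrays and 1 by the methods' t-test, against 0. The median of all probe sets in the Vagad drought response was -0.63 in the values reported, -1.83 with arrays aligned at their medians, -0.23 in the signals as deposited and 0.00 on 10 arrays, so Vagad differences on all plants are best read against it.

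In the Vagad drought response 8 of the 23 tested members changed sign between all plants and 10 arrays. Of these, Ghi.2235.1.A1_s_at was -0.71 and 0.13, Ghi.2738.1.S1_s_at -0.16 and 0.54, Ghi.6769.1.S1_at -1.78 and 0.14, Ghi.9834.1.S1_s_at -0.04 and 0.25, and GhiAffx.60787.1.S1_at 0.02 and -0.33. Every alternative was run for 12 members, and 7 of them changed sign under at least 1. Ghi.6899.1.A1_at was -0.69 on all plants, 1.86 on 10 arrays, 0.19 as deposited and -1.83 to 0.92 with 1 plant left out. GhiAffx.3815.1.A1_s_at was -0.30, against 1.54 on 10 arrays, 1.08 as deposited and -1.04 to 0.72 with 1 plant left out, and GhiAffx.41577.1.S1_s_at was -0.17, against 0.76, 1.13 and -0.73 to 0.78. The high ends are those without plant 2. With 1 plant left out GhiAffx.20947.1.S1_at ran from -0.12 (without plant 2) to 2.48 (without plant 1), and Ghi.4325.2.S1_x_at from -0.63 (without plant 1) to 0.020 (without plant 3), with 0.17 as deposited. With arrays aligned at their medians Ghi.5136.1.S1_s_at was -0.59 and Ghi.8378.2.S1_s_at -0.52. The cause was not tested.

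Plants of one number did not deviate together (0 of 18 pairs over 0.1, from -0.10 to 0.06), so no pairing by number was seen. With a replicate block, 9 and 1 members were called in RAHS-14, 0 and 0 in Vagad, and 0 in either accession comparison.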
